A study of Mus musculus with 15 samples.

Results

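Cytip and 8 genes that mark lymphocytes were followed through 15 RNA sequencing libraries of mouse RPE/choroid, to see whether Cytip goes up and down with T, B or NK cell genes. The members are the rows of the count table with the symbols Cytip, Cd3d, Cd3e, Cd3g, Cd2, Cd79a, Cd79b, Ms4a1 and Nkg7, which makes 9 of the 40481 genes in it. All 9 passed the low-count filter that left 17991 genes for testing. Cytip was chosen for its difference between the groups in an earlier look at these data, selected on its edgeR log2 fold change and p (rank 9 of all genes tested), so that difference is described here and not tested. The other 8 were chosen by name, as markers of their cell types.

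Cytip, the cytohesin-interacting protein, is a scaffold protein of lymphocytes and dendritic cells that binds cytohesins and restrains adhesion through the integrin made of Itgal and Itgb2. T cells carry a receptor complex with the signalling chains encoded by Cd3d, Cd3e and Cd3g, and Cd2 encodes an adhesion receptor of T and NK cells. B cells couple their antigen receptor to signalling through the Cd79a and Cd79b chains and carry the surface protein CD20, encoded by Ms4a1. Nkg7 encodes a granule membrane protein of NK cells and cytotoxic T cells. The choroid, the vascular layer behind the retina, is perfused by blood and holds resident and passing leukocytes.

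The INK-ATTAC group held 8 libraries of genotype Abca1/Abcg1 flox/flox LysM-Cre with the INK-ATTAC transgene, and the control group held 7 libraries of genotype Abca1/Abcg1 flox/flox LysM-Cre without it. Both groups are labelled AP20187 (i.p), and for INK-ATTAC mice the series describes dosing on alternate days over 3 months. LysM-Cre deletes the floxed cholesterol transporter genes in myeloid cells of both groups, so neither group is wild type. The transgene expresses an FKBP and caspase 8 fusion from the promoter of p16Ink4a, and AP20187 dimerizes it to kill the cells that use this promoter. Ages are not given. Nothing in the labels says that libraries came from separate animals, and the p-values therefore reflect only how far these samples spread, which may be technical.

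The libraries held 39121503 to 65065950 counts. RPE markers were abundant, with Rpe65, the retinoid isomerase of the visual cycle, at 5531 CPM (counts scaled to a common library total) in INK-ATTAC and 5926 CPM in control libraries on average. All 8 tested lens markers were higher in INK-ATTAC libraries (median log2 fold change 3.05), and so were all 8 skeletal muscle markers (median 0.93), against -0.00097 for all genes. All 10 rod markers (median -0.29) and all 7 erythrocyte markers (median -0.46) were lower. Holding the skeletal muscle level constant, the log2 fold change was -0.50 for Cytip, -0.41 for Cd3d and 0.15 for Cd3e. With the rod level held constant it was -0.55 for Cytip, -0.53 for Cd3d and -0.19 for Cd3e. The part of lens and erythrocyte RNA in the member values was not tested. With edgeR's quasi-likelihood test 0 genes passed an adjusted p of 0.05 (0% of 17991), and 745 had an unadjusted p under 0.05 (4.14%). DESeq2 called 6 genes.

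All 9 members were scarce transcripts. Per length of exon, in CPM per kilobase of exon (RPKM), Nkg7 on chromosome 7 was the highest, at 8.75 ± 5.50 RPKM in INK-ATTAC and 7.89 ± 3.99 RPKM in control libraries (SD, n = 8 and 7). Cd79b on chromosome 11 was next, at 3.66 ± 0.828 RPKM in INK-ATTAC and 3.70 ± 0.558 RPKM in control libraries. Cd2, Cd3g, Cd3d, Cd3e, Cytip and Cd79a averaged between 0.438 and 1.12 RPKM in INK-ATTAC libraries and between 0.543 and 1.09 RPKM in controls, and neighbours in the order of the means differed by less than the larger of their SDs in both groups. Cytip had 0.448 ± 0.0643 RPKM in INK-ATTAC and 0.649 ± 0.0949 RPKM in control libraries. Ms4a1 on chromosome 19 was the lowest, at 0.0659 ± 0.0381 RPKM in INK-ATTAC and 0.102 ± 0.0486 RPKM in control libraries, with 6 to 40 reads per INK-ATTAC library and 5 to 53 per control library.

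The genes of the CD3 chains sit side by side on chromosome 9 (GRCm38), with Cd3g at 44969572 to 44980431 on the minus strand, Cd3d at 44981786 to 44987339 on the plus strand and Cd3e at 44998740 to 45009627 on the minus strand. Cd3g and Cd3d are read outward from starts 1355 bases apart. Cytip lies apart from them, at chromosome 2, 58129137 to 58195532 on the minus strand. An exon of Cd3e overlaps an antisense gene by 135 bases, and without a stated strand setting their reads cannot be told apart. Below are the 250 bases before the RefSeq transcript start of Cytip and of the genes that varied together, printed to show whether short motifs of lymphocyte promoters are shared between them. They come from RefSeq (GRCm38.p6), which matched 6 of the 9 members, and are written 5′ to 3′ on the strand of the gene. For Cytip the RefSeq start, 58160122, lies 35410 bases inside the GENCODE gene given above, so its window belongs to another transcript start than the outermost one. Capitals mark the RUNX core TGTGGT, the E-box CAGNTG, the ETS core AGGAAG and the TCF and LEF core CTTTGA on either strand. The windows are chr2:58160123-58160372 (minus) for Cytip, chr9:44981536-44981785 (plus) for Cd3d, chr9:45009612-45009861 (minus) for Cd3e, chr9:44980432-44980681 (minus) for Cd3g and chr7:43436888-43437137 (plus) for Nkg7.
Cytip: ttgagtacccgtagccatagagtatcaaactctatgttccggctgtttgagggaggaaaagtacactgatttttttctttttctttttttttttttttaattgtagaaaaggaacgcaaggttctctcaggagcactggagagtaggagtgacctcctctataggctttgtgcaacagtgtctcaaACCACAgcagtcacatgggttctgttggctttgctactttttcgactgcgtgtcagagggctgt
Cd3d: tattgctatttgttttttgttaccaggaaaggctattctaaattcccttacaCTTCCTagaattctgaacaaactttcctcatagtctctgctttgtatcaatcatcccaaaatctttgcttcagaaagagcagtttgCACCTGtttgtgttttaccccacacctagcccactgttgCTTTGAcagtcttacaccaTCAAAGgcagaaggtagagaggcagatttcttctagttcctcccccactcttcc
Cd3e: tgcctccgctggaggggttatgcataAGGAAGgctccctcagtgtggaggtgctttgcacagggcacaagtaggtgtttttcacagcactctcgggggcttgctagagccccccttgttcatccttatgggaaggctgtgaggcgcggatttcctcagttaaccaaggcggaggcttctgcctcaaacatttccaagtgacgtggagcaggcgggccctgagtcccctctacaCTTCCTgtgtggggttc
Cd3g: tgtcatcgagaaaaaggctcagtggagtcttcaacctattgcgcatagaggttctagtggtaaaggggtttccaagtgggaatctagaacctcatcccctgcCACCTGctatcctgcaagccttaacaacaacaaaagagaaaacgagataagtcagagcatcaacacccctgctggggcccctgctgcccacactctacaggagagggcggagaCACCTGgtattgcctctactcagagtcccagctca
Nkg7: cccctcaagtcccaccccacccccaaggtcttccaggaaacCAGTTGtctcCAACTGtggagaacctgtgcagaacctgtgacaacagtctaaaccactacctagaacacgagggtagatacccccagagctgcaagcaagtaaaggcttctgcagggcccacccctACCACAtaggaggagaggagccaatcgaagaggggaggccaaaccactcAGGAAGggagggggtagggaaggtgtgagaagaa
In these windows Cytip held 1 RUNX core and no match to the other 3 motifs. Nkg7 also held 1 RUNX core, with 2 E-boxes and 1 ETS core. Cd3d held 1 E-box, 1 ETS core and 2 TCF and LEF cores, Cd3g held 2 E-boxes, and Cd3e held 2 ETS cores. None of the 4 motifs was in all 5 windows. Of 32536 promoter windows of the same length, 13.96% held the RUNX core, 44.8% the E-box, 29.6% the ETS core and 13.9% the TCF and LEF core. These matches are letters in a window and not binding sites.

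Cytip was lower in INK-ATTAC than in control libraries, with little spread in either. INK-ATTAC libraries had a lowest value of 2.45, a median of 3.00 and a highest of 3.797 CPM, and control libraries 3.48, 4.50 and 5.29 CPM. Of the 8 INK-ATTAC libraries 7 lay below the lowest control, and of the 7 controls 6 lay above the highest INK-ATTAC library, so the groups overlapped by a few libraries. The log2 fold change was -0.53 (SE 0.13), and in the authors' deposited table it was -0.51 with a confidence interval of -0.76 to -0.26. That interval comes from the same libraries and does not allow for the choice of Cytip among all genes, so it is no separate evidence. Cytip, like every other gene, did not pass edgeR's adjusted threshold. The reads behind it were 120 to 212 per INK-ATTAC library and 153 to 287 per control library. From its lowest to its highest library Cytip differed 2.16-fold, and counting error made up 27.98% of its variance within groups, the largest share of the 9 members. In whole tissue, fewer cells of a type and less RNA per cell cannot be told apart.

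The T cell genes varied far more between libraries than between groups. Cd3d had a lowest value of 0.942, a median of 1.23 and a highest of 4.36 CPM in INK-ATTAC libraries, and of 0.478, 1.34 and 3.93 CPM in controls. Cd3e had 0.736, 1.93 and 3.62 CPM in INK-ATTAC libraries and 0.934, 1.46 and 5.94 CPM in controls. Cd3g had 1.14, 2.65 and 6.54 CPM in INK-ATTAC libraries and 0.803, 1.70 and 5.29 CPM in controls. The ranges of the groups overlapped over most of their length for each of the 3 chains, and INK-ATTAC 2 and control 6 were the highest of their groups for Cd3d and Cd3g. Cd2 had 0.784, 1.54 and 4.94 CPM in INK-ATTAC libraries and 0.955, 1.64 and 2.53 CPM in controls, and its control range fell inside the INK-ATTAC range. Across all 15 libraries the 4 genes spanned 6.30-fold (Cd2) to 9.12-fold (Cd3d).

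The B cell genes did not share one pattern. Cd79a had a lowest value of 0.358, a median of 0.632 and a highest of 0.963 CPM in INK-ATTAC libraries, and of 0.387, 1.13 and 1.27 CPM in controls. For Cd79a 6 of the 7 controls lay above the highest INK-ATTAC library, and control 5 lay near the bottom of the INK-ATTAC range. Cd79b had 3.44, 5.31 and 6.56 CPM in INK-ATTAC libraries and 3.79, 5.55 and 5.98 CPM in controls, and with a span of 1.91-fold over all libraries it was the steadiest member. Ms4a1 had 0.0921, 0.314 and 0.848 CPM in INK-ATTAC libraries and 0.0922, 0.666 and 1.101 CPM in controls, so the groups overlapped over most of their range. Nkg7, the cytotoxic granule gene, had 3.68, 6.48 and 18.96 CPM in INK-ATTAC libraries and 3.42, 6.02 and 13.6 CPM in controls. INK-ATTAC 2 and control 6, high for Cd3d and Cd3g, were also the highest of their groups for Nkg7.

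**Figure D1:**
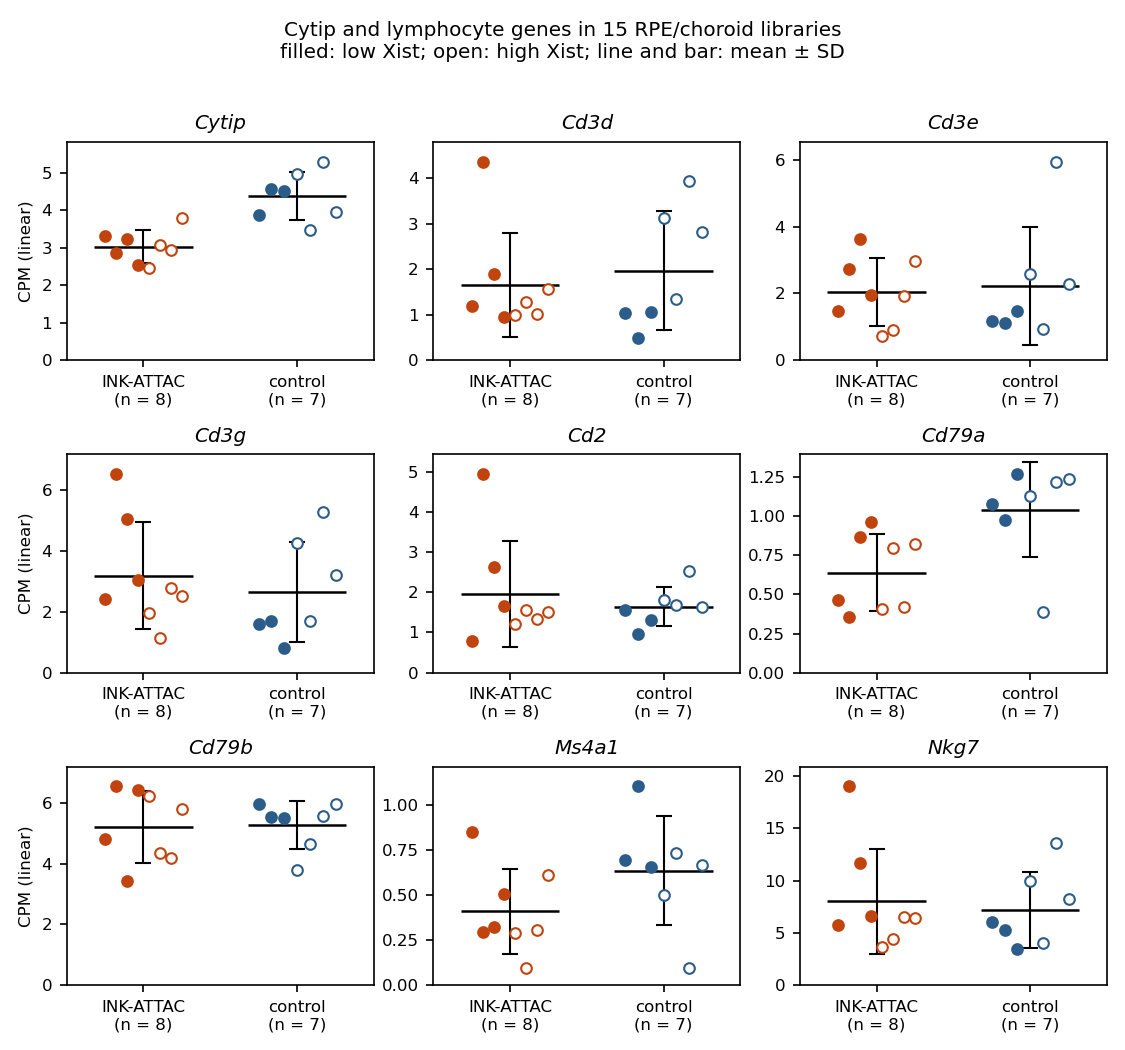
CPM (TMM scaled, linear axes from 0) of the 9 members, one point per library, with INK-ATTAC (8 libraries) left of control (7 libraries) filled points for libraries of low Xist and open points for those of high Xist (classes described further on), and lines and bars for mean and SD. Cytip has 7 of 8 INK-ATTAC points below the lowest control. The ranges of Cd3d, Cd3e, Cd3g, Cd2 and Nkg7 overlap between the groups, and that of Cd2 is narrower in controls.

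The plot of member values by library shows the tight Cytip groups beside the wide T cell and Nkg7 groups. Of the 9 members, 0 had groups that did not overlap (background 0.0222% of genes tested). None of the 8 lymphocyte genes passed edgeR's test (adjusted p = 1.00 for each). At an unadjusted p under 0.05, 1 of the 8 was lower in INK-ATTAC libraries (background 1.94%) and 0 were higher (background 2.2%). That gene was Cd79a, with a log2 fold change of -0.70 (SE 0.28, edgeR unadjusted p = 0.0221). Ms4a1 had a log2 fold change of -0.64 (SE 0.43) and Cd79b one of -0.02 (SE 0.15). Cd3d had -0.26 (SE 0.42), Cd3e -0.12 (SE 0.40), Cd3g 0.26 (SE 0.39), Cd2 0.25 (SE 0.32) and Nkg7 0.15 (SE 0.35), each less than its SE. The sign of several rested on 1 library. Without INK-ATTAC 2 the log2 fold change of Cd2 was -0.11 and that of Nkg7 -0.17, and without control 6 that of Cd3d was 0.01 and that of Cd3e 0.35. Cd79b lay just above 0 without INK-ATTAC 3, 6 or 7 or without control 1 or 7, at most at 0.049.

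The wider cell type lists gave the same picture of group differences. Of 21 T cell genes tested, 11 were lower and 10 higher in INK-ATTAC libraries (median log2 fold change -0.05), with 0 at an unadjusted p under 0.05. Cd4, the helper T cell coreceptor, which some dendritic cells also express, was the most abundant of them, at 10.8 ± 3.36 CPM in INK-ATTAC and 12.8 ± 4.11 CPM in control libraries (SD, n = 8 and 7). Of 11 B cell genes, 9 were lower and 2 higher (median -0.20), with Cd79a as the 1 at an unadjusted p under 0.05. Ighm, the heavy chain of IgM, had 20.4 ± 4.48 CPM in INK-ATTAC and 19.6 ± 3.66 CPM in control libraries. Of 10 NK and cytotoxic genes, 4 were lower and 6 higher (median 0.12), with Ccl5, a chemokine of cytotoxic T and NK cells, at 18.1 ± 14.2 CPM in INK-ATTAC and 16.4 ± 11.7 CPM in control libraries. Among the NK receptor genes tested, Ncr1 was the lowest, at 0.188 ± 0.0832 CPM in INK-ATTAC and 0.220 ± 0.154 CPM in control libraries. Klrk1, the highest of them, had 1.427 ± 0.347 CPM in control libraries and was also lower in INK-ATTAC libraries. Klrd1 went the other way, at 0.606 ± 0.415 CPM in INK-ATTAC and 0.560 ± 0.294 CPM in control libraries. So did Klrb1c, at 0.433 ± 0.277 CPM in INK-ATTAC and 0.395 ± 0.213 CPM in control libraries. For all genes tested the median was -0.00097, with 50.2% below 0. No gene of any list passed the adjusted threshold.

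Within groups, the T cell genes and Nkg7 moved together from library to library. Log2 CPM was taken as the deviation from the group mean and correlated over the 15 libraries, with p from permutations within groups adjusted over the 28 pairs of the 8 lymphocyte genes. Of the 10 pairs among Cd3d, Cd3e, Cd3g, Cd2 and Nkg7, 9 passed an adjusted p of 0.05, with Pearson's r of 0.580 to 0.930. Cd3g and Nkg7 were the closest pair (r = 0.930, rho = 0.936, permutation p = 1e-05, the smallest these permutations can give, adjusted p = 2.8e-04). Cd3e and Cd2 were the pair that did not pass (r = 0.580, permutation test, adjusted p = 0.0600). Without the 2 libraries farthest from the median, r of the 10 pairs was 0.539 to 0.904, and without any 1 library 0.518 to 0.945. Within INK-ATTAC libraries alone r was 0.549 to 0.918, and within controls alone 0.690 to 0.956. With the means of the Xist classes (libraries of low and of high Xist, described further on) also removed, r was 0.452 to 0.913 and 2 of the 10 pairs passed.

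With group means removed no pair that holds a B cell gene passed, and the values of Ms4a1 with the T cell genes depended on the libraries used. Among Cd79a, Cd79b and Ms4a1 the 3 pairs had r of -0.154 to 0.140, and 0 passed. The 15 pairs of a B cell gene with a T cell gene or Nkg7 had r of -0.483 to 0.400, and 0 passed. With the means of the Xist classes also removed they had r of -0.566 to 0.537, and 1 passed, Cd2 with Ms4a1 (r = -0.566, rho = -0.696, permutation test, adjusted p = 0.0368). Within controls alone Ms4a1 had r = -0.896 with Cd3e (unadjusted exact permutation p = 0.00814), and within INK-ATTAC libraries alone 0.405 (exact permutation p = 0.331). Without control 6, where Ms4a1 had 5 reads, r of that pair over both groups was 0.209, against -0.299 with it. As descriptions, Nkg7 had r = 0.928 with the mean level of the T cell list and 0.791 with that of the NK and cytotoxic list without Nkg7 itself. Cd79b had r = 0.432 with the B cell list without itself, against 0.524 with the neutrophil list and 0.459 with the RPE list. These correlations share libraries and depth.

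**Figure D2:**
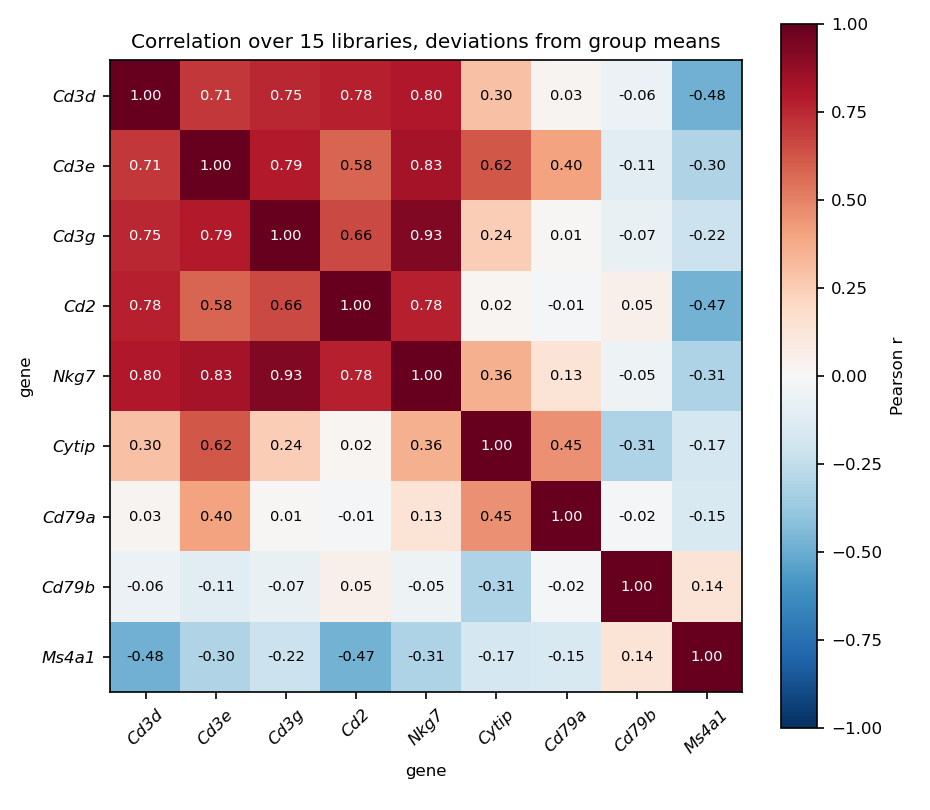
Pearson correlation between each pair of the 9 members over 15 libraries, from log2 CPM deviations from the group means, on a colour scale from -1 to 1. The block of Cd3d, Cd3e, Cd3g, Cd2 and Nkg7 holds values of 0.580 to 0.930, and the row of Cytip reaches its highest value of 0.620 with Cd3e.

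The grid of pair correlations shows 1 block of T cell genes and Nkg7, with mostly lower values for Cytip and the B cell genes. Cytip with Cd3e (0.620) lay above the lowest pair of the block, Cd3e with Cd2 (0.580). Cytip followed none of the 8 lymphocyte genes past the threshold once p was adjusted over the 8. Its highest correlation was with Cd3e (r = 0.620, rho = 0.593, permutation p = 0.0192, adjusted p = 0.154). At a permutation p under 0.05, that was 1 of 8 genes in the positive direction (background 7% of 17990 genes) and 0 of 8 in the negative direction (background 4.49%). Without INK-ATTAC 5 and control 6, the 2 libraries farthest from the median of Cd3e, r was 0.359, so the relation rests in part on them. With the level of Ptprc, the pan-leukocyte gene of CD45, also removed r was 0.385. Over all settings that left out at most 1 library it was 0.372 to 0.728, with an adjusted p of 0.0513 to 0.898 from permutations. Within INK-ATTAC libraries it was 0.496 (exact permutation p = 0.214) and within controls 0.743 (exact permutation p = 0.0534). Adjusted over all genes, 0 genes correlated with Cytip (0%).

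The other chains of the same receptor complex gave lower values. Cd3d had r = 0.295 with Cytip (rho = 0.379, permutation p = 0.312, adjusted p = 0.499) and Cd3g r = 0.244 (rho = 0.354, permutation p = 0.400, adjusted p = 0.533). Cd2 had r = 0.023 (rho = 0.011, permutation p = 0.937, adjusted p = 0.937), with a sign that turned without INK-ATTAC 3, INK-ATTAC 5, control 4 or control 6, down to -0.122 without control 6. Without the 2 libraries farthest from its median, r was 0.247 for Cd3d, 0.433 for Cd3g and 0.292 for Cd2. Without control 6 alone it was 0.142 for Cd3d, 0.079 for Cd3g and 0.216 for Nkg7. Within INK-ATTAC libraries alone it was 0.234 for Cd3d, 0.003 for Cd3g and 0.153 for Nkg7, and within controls 0.349 for Cd3d, 0.469 for Cd3g and 0.599 for Nkg7. Nkg7 had r = 0.357 with Cytip (rho = 0.311, permutation p = 0.210, adjusted p = 0.499), and 0.368 without the 2 libraries farthest from its median. Of all genes tested, these 5 stood at percentiles from 51.1 (Cd2) to 97.5 (Cd3e) by r with Cytip.

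Cd79a, the B cell gene that was lower in INK-ATTAC libraries, had r = 0.454 with Cytip within groups (rho = 0.371, permutation p = 0.104, adjusted p = 0.414). Without the 2 libraries farthest from its median r was 0.201, and without single libraries it was 0.225 (control 5 left out) to 0.649 (INK-ATTAC 4 left out). Cd79b had r = -0.309 (rho = -0.400, permutation p = 0.280, adjusted p = 0.499), the lowest of the 8. Ms4a1 had r = -0.174 (rho = 0.039, permutation p = 0.555, adjusted p = 0.634), and without control 6, where it had 5 reads, r was 0.183. The 3 B cell genes thus lay on both sides of 0.

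**Figure D3:**
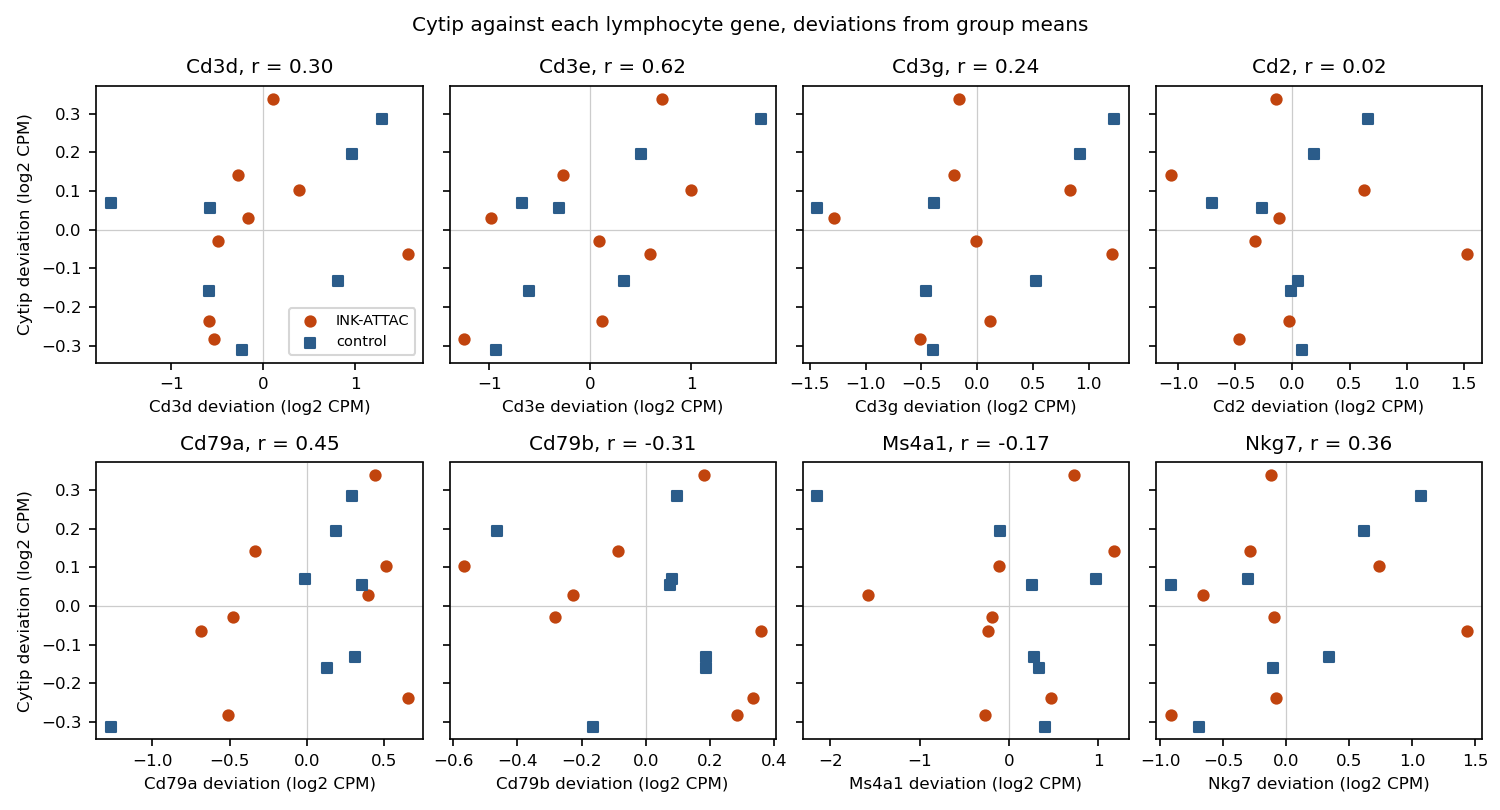
Log2 CPM of Cytip (vertical axis) against each of the 8 lymphocyte genes (horizontal axis), both as deviations from the group mean, with one point per library (8 INK-ATTAC and 7 control). Cd3e has the highest correlation (r = 0.620), and the clouds of Cd2 (r = 0.023), Cd79b (r = -0.309) and Ms4a1 (r = -0.174) show no upward trend.

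The scatter of Cytip against each gene shows how narrow the Cytip axis is beside those of the T cell genes. The SD within groups on the log2 scale was 0.21 for Cytip and 0.89 for Cd3d. For Cytip counting alone gives an SD of 0.11, which is 27.98% of the variance. Given as descriptions with no p, the mean level of the T cell list had r = 0.462 with Cytip, that of the NK and cytotoxic list 0.215 and that of the B cell list -0.053. Without control 6 the T cell value was 0.285 and the NK value 0.041, and without control 5 the B cell value was -0.347. Leaving the members out of the lists gave 0.485, 0.184 and -0.068 in the same order. Other leukocyte lists had 0.554 (pan-leukocyte), 0.523 (monocyte), 0.277 (macrophage), 0.239 (dendritic cell), 0.236 (neutrophil), 0.113 (mast cell) and 0.111 (plasma cell). Without control 5 the dendritic cell value was -0.013 and the macrophage value 0.073, without INK-ATTAC 8 the neutrophil value was 0.074, without control 4 the mast cell value was 0.040, and without control 6 the plasma cell value was -0.063. The highest value, 0.677, belonged to 12 genes of Cytip partners and its paralog, which include cytohesins, their Arf substrates, Itgb2 and its ligand Icam1. These genes are expressed well beyond lymphocytes.

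Of these partners 0 passed the test between the groups. Icam1, the endothelial ligand of the leukocyte integrin, averaged 45.8 CPM in INK-ATTAC and 52.0 CPM in control libraries and had r = 0.572 with Cytip. Itgb2, the beta chain of that integrin, averaged 45.6 CPM in INK-ATTAC and 50.5 CPM in control libraries (r = 0.412). The cytohesin gene Cyth3 averaged 63.2 CPM in INK-ATTAC and 63.4 CPM in control libraries (r = 0.411). Arf1, the most abundant gene of the list, went the other way (r = -0.300). It averaged 395.7 CPM in INK-ATTAC and 396.2 CPM in control libraries. Of the 12 partner genes 10 were lower and 2 higher (median log2 fold change -0.10). Of 19 antigen receptor signalling genes, whose mean level had r = 0.591 with Cytip, 13 were lower and 6 higher (median -0.09). Lymphocyte homing and activation genes had r = 0.392, lymphoid chemokines and cytokines 0.372 and choroidal endothelium 0.446. Several list values differed by group. Within INK-ATTAC libraries and within controls, r was -0.03 and 0.71 for homing and activation, 0.16 and 0.71 for endothelium and -0.07 and 0.64 for dendritic cell genes. It was higher within INK-ATTAC libraries for pan-leukocyte (0.76 and 0.38) and macrophage genes (0.53 and 0.07). Plasma cell (-0.38 and 0.37) and erythrocyte genes (0.33 and -0.61) changed sign. The lists of lens (0.175), erythrocyte (-0.108), skeletal muscle (-0.144), rod (-0.147) and RPE genes (-0.271) were the remaining ones.

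**Figure D4:**
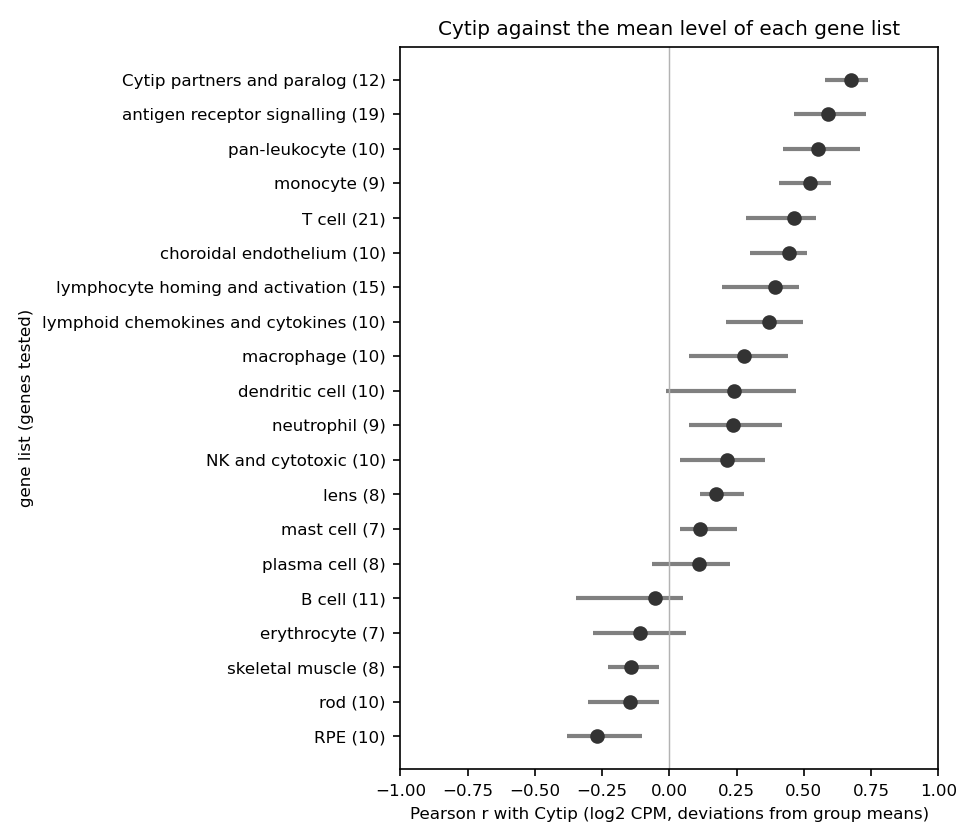
Pearson correlation of Cytip with the mean log2 CPM of 20 gene lists, as deviations from the group means over 15 libraries. Horizontal bars through the points span the values with each library left out in turn. Cytip partners and paralog (0.677) is at the top, T cell has 0.462, NK and cytotoxic 0.215 and B cell -0.053.

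The plot of list correlations shows overlapping leave-one-out spans for most lists, so their order is a description. Levels of a cell type could also be held constant in the edgeR fit. The log2 fold change of Cytip was then -0.53 (SE 0.12) with the T cell level as a covariate, -0.55 (SE 0.14) with the B cell level, -0.53 (SE 0.13) with the NK and cytotoxic level, -0.51 (SE 0.13) with the macrophage level and -0.49 (SE 0.12) with the pan-leukocyte level. Over all leave-one-out fits it lay between -0.59 and -0.48. These values rest on the same fold change that chose Cytip and are descriptions.

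The genes nearest to Cytip over the 15 libraries were sought among 11959 genes that averaged 1 log2 CPM or more and have a regular name. The ranking used the mean of log2 CPM over libraries, which among the lymphocyte members reached 1 only for Cd3g, Cd79b and Nkg7. By edgeR's average log2 CPM, another measure, 4 of the 8 lymphocyte genes and 7 of 21 genes of the T cell list reached it. On that measure 4 of 11 genes of the B cell list and 2 of 10 of the NK and cytotoxic list did. Most lymphocyte genes could thus not enter the ranking. Among the 11959 candidates the highest r belonged to Pusl1 (0.816), Taf1c (0.806), Baiap2l1 (0.805), Vsig10 (0.805), Dok1 (0.800), Eif4e3 (0.798), Sfn (0.794) and Rpia (0.788). The lowest belonged to Ppp6r3 (-0.878), Cfap97 (-0.855), Sptlc1 (-0.839) and Nat8f1 (-0.825). No gene passed adjustment over all genes.

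The libraries also fall into 2 classes by Xist, a noncoding RNA that coats the inactive X chromosome, and the labels do not describe this split. Xist was at 0.551 to 1.87 CPM in INK-ATTAC 1 to 4 and control 1 to 3, and at 70.1 to 108 CPM in INK-ATTAC 5 to 8 and control 4 to 7. Comparing the group difference between these classes was chosen after seeing the data. The Cytip log2 fold change was -0.53 (SE 0.19) with low Xist and -0.53 (SE 0.18) with high Xist, a difference of -0.0018 (SE 0.26). These Cytip values divide the fold change that chose Cytip, so they are descriptions and no separate evidence. The T cell genes and Nkg7 had group differences of opposite sign in the classes. Cd3g had a log2 fold change of 1.64 (SE 0.44) with low Xist and -0.79 (SE 0.39) with high Xist, a difference of 2.43 (SE 0.59, edgeR unadjusted p = 8.1e-04, adjusted p = 0.727). Cd3d had 1.29 (SE 0.49) with low Xist and -1.22 (SE 0.44) with high Xist, a difference of 2.51 (SE 0.66, edgeR unadjusted p = 0.0017, adjusted p = 0.876). For Nkg7 the difference was 1.90 (SE 0.57, edgeR unadjusted p = 0.0044, adjusted p = 0.876).

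At an unadjusted p under 0.05, 5 of the 8 lymphocyte genes had a higher group difference with low Xist (background 2.97% of 17991 genes, and 4.77% for both directions), and 0 passed after adjustment (background 0%). The 5 were Cd3d, Cd3g, Nkg7, Cd3e (1.82, SE 0.74) and Cd2 (1.42, SE 0.59), which vary together and so are not independent. With each library left out in turn, the unadjusted p stayed under 0.05 in 15 of 15 fits for Cd3d, Cd3g and Nkg7, in 10 of 15 for Cd3e and in 12 of 15 for Cd2. Without control 6 the Cd3e difference was 1.21, and without INK-ATTAC 2 the Cd2 difference was 0.85. For the B cell genes the differences between the classes were -0.05 (SE 0.60) for Cd79a, -0.13 (SE 0.31) for Cd79b and -0.11 (SE 0.86) for Ms4a1, and with single libraries left out that of Ms4a1 ran from -0.498 to 0.408. In the T cell list 15 of 21 genes were at an unadjusted p under 0.05 in the same direction, with a median log2 fold change of 1.198 with low Xist and -0.79 with high Xist. In the NK and cytotoxic list it was 5 of 10. The T cell list includes Cd3d, Cd3e, Cd3g and Cd2 and the NK and cytotoxic list Nkg7, all counted above. Other leukocyte lists had some too, with 3 of 10 dendritic cell, 2 of 9 monocyte, 1 of 7 mast cell and 1 of 10 pan-leukocyte genes. In the B cell, macrophage and neutrophil lists it was 0 of 11, 0 of 10 and 0 of 9. For all genes tested the medians were -0.00017 with low Xist and 0.0052 with high Xist.

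**Figure D5:**
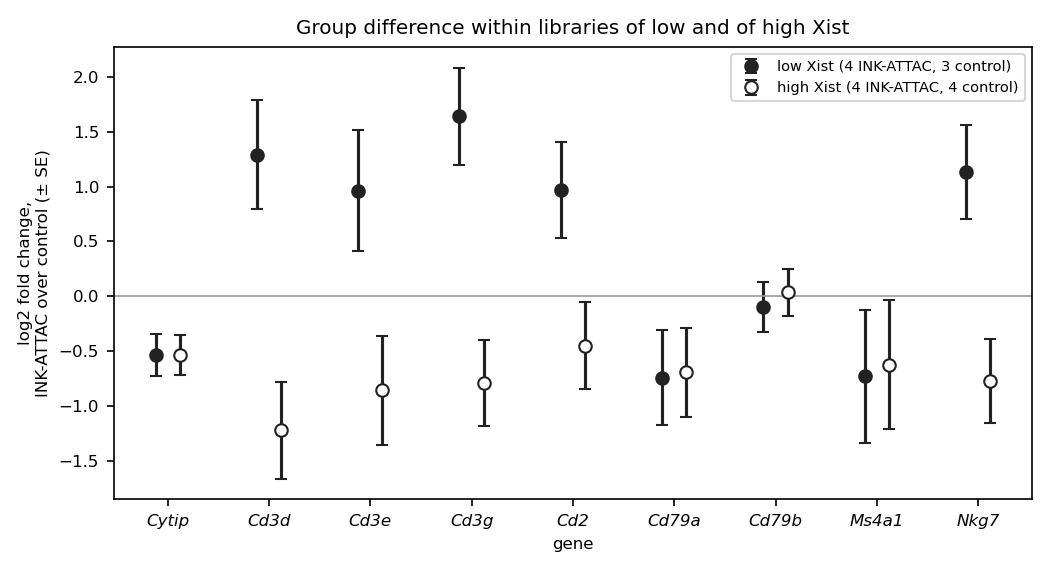
Log2 fold change of INK-ATTAC against control (edgeR, bars are SE) for the 9 members in libraries with low Xist (4 INK-ATTAC and 3 control) and with high Xist (4 and 4). Cd3d, Cd3e, Cd3g, Cd2 and Nkg7 lie above 0 with low Xist and below 0 with high Xist, and Cytip is at -0.53 in both.

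The plot by Xist class shows Cytip, chosen for its fold change over these same libraries, at the same place in both classes. The T cell genes lie on opposite sides of 0. With the means of group and Xist class removed, r of Cytip was 0.728 with Cd3e (permutation p = 0.018, adjusted p = 0.144), 0.467 with Nkg7, 0.473 with Cd79a, 0.406 with Cd3d, 0.362 with Cd3g and 0.033 with Cd2. It was -0.309 with Cd79b and -0.164 with Ms4a1. Again 0 of the 8 passed after adjustment.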

How the data were processed

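RNA of mouse RPE/choroid was taken up in TRIzol, purified on NucleoSpin columns and amplified with SMARTer chemistry, per the labels' protocols. DRAGEN, bcl2fastq, limma and edgeR are the tools, and GRCm38 the build, named per the submitters' processing notes. Versions, strand setting and annotation: not given in the sources used here. The authors deposited raw read counts per gene for each library, per the file headers not normalized. They also deposited a comparison table with log2 CPM, log2 fold changes, confidence limits and p-values per gene, per the file headers.

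Groups came from the sample titles. Of 40757 entries, repeats were collapsed to 40481 genes, and filterByExpr left 17991. Libraries of a group were compared pairwise, and the lowest chi-square per gene was 29.8, so none repeated another. The test was edgeR 4.0.16's quasi-likelihood F-test (R 4.3.3, TMM), and its two-sided p-values were adjusted by Benjamini-Hochberg over these 17991 genes. Its common biological coefficient of variation was 0.265. The SE is the absolute log2 fold change over the square root of F. Correlations used log2 CPM with a prior count of 2, group means removed and 100000 permutations within groups, or exact pairings within 1 group. RPKM used exon lengths from GENCODE (GRCm38). Counts without molecular identifiers include amplified copies, so counting intervals cover counting error only.

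The members and gene lists were chosen with earlier results of these data known. Named genes are the 9 members, up to 4 genes of highest mean CPM per list, and the 8 highest and 4 lowest genes by r with Cytip. Ncr1 lies outside this rule and was chosen after its values were seen. Alternatives were DESeq2 1.42.0, limma 3.58.1 voom with and without quality weights, RLE scaling, other filters and prior counts, covariates, blocks by number and leaving out each library. The Xist classes and the 28 pairs were chosen after seeing the data. The edgeR tests between groups and between Xist classes and the permutation test were tested on simulated data.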

Additional observations from a re-analysis of the deposited data

Results flagged for a closer look

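Among 24 groups of values examined for a library far from its group (9 members and 3 list levels in each group), 5 held one. Chance gives about 1 in 20 for independent, normally distributed values. The member values are linear CPM, the members vary together (Cd3d and Cd2 had r = 0.778) and the lists contain members. The 5 are therefore not separate outliers to be set against that rate. Cd3d was at 4.36 CPM in INK-ATTAC 2, against 1.90 CPM in the nearest INK-ATTAC library. Cd2 was at 4.94 CPM in the same library, against 2.63 CPM in the nearest. Cd3e was at 5.94 CPM in control 6, against 2.58 CPM in the nearest control. The NK and cytotoxic list level was 0.83 log2 CPM in control 6, against 0.10 in the nearest control. Cd79a was at 0.387 CPM in control 5, the lowest control, against 0.976 CPM in the nearest.

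The group difference of 5 members differed between the low and high Xist classes at an unadjusted p under 0.05 in edgeR, and for none after adjustment over all genes. As log2 fold change with low Xist minus that with high Xist, the values were 2.51 for Cd3d, 2.43 for Cd3g, 1.90 for Nkg7, 1.82 for Cd3e and 1.42 for Cd2. What the classes differ in besides Xist was not tested.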

How the results depend on the processing

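Counting error took the largest shares of the variance within groups in Cytip (27.98%), Cd79a (19.98%) and Ms4a1 (15.3%), and with 15 libraries a correlation of moderate size is not told from 0. The count of genes past the threshold was 0 in every setting except DESeq2 (6, with 758 at an unadjusted p under 0.05) and limma-voom with quality weights (2, with 1068); the cause was not tested. The Cytip log2 fold change kept its sign in all settings, from -0.59 to -0.48. Cytip was chosen for this fold change in the same libraries, so the kept sign is a description.

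Correlations with Cytip that turned sign, where the cause was not tested, were those of Cd3g (-0.023 with group means kept, -0.058 with Ptprc level removed), Cd2 (-0.047 with group means kept, -0.19 with Ptprc level removed) and Ms4a1 (0.16 with group means kept). With single libraries left out, r of Cd2 was -0.122 to 0.146 and r of Ms4a1 -0.341 to 0.183. Log2 fold changes that turned were those of Nkg7 (-0.0097 in limma-voom with quality weights, -0.029 with rod level), Cd3e (0.15 with skeletal muscle level, 0.054 with group and Xist class) and Cd3d (0.037 with group and Xist class). With single libraries left out, they were -0.114 to 0.386 for Cd2, -0.174 to 0.379 for Nkg7, -0.0862 to 0.0489 for Cd79b, -0.645 to 0.00768 for Cd3d and -0.294 to 0.352 for Cd3e. None of the 8 lymphocyte genes passed in any of these.

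Same-numbered libraries of the groups correlated at -0.10 to 0.29 by title number and -0.15 to 0.23 by description number across genes, with 4 of 7 and 2 of 7 pairs over 0.1, so the numbers were not taken to pair the samples. Same-numbered libraries had the same Xist class in 6 of 7 pairs by title number and in 7 of 7 by description number. With a replicate block by title number 0 genes passed (734 at an unadjusted p under 0.05), and r with Cytip was -0.20 for Cd2 and -0.41 for Cd79a. With a block by description number 0 passed (751), and the Cd3e log2 fold change was 0.048.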

Other observations

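Levels of other lists are set beside Nkg7 as descriptions with no p. The lymphoid chemokines and cytokines list shares Ccl5 with the NK and cytotoxic list. Nkg7 had r = 0.919 with the mean level of the lymphoid chemokines and cytokines list, 0.862 with lymphocyte homing and activation, 0.785 with the monocyte list and 0.597 with the plasma cell list, against 0.104 with the macrophage and 0.098 with the B cell list, all from 15 libraries with group means removed. The plasma cell value was 0.292 within INK-ATTAC libraries and 0.846 within controls, and with Cd3d in place of Nkg7 it was 0.162 within INK-ATTAC libraries and 0.955 within controls. Plasma cell genes were abundant beside the members, with Igkc, the kappa light chain of antibodies, at 104 ± 44.7 CPM in INK-ATTAC and 98.8 ± 83.8 CPM in control libraries (SD, n = 8 and 7). In that list 4 of 8 genes had a higher group difference with low Xist at an unadjusted p under 0.05 in edgeR (background 2.97% of all genes), with a median log2 fold change of 0.90 with low Xist and -0.77 with high Xist, and 0 passed after adjustment.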
